A study of Mus musculus with 15 samples.

Results

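Exc_15 is one of the 26 excitatory clusters into which the study divided the glutamatergic neurons of the mouse prefrontal cortex (PFC). Its members were taken as every cell that carries the name Exc_15 in the deposited cell annotation, which gave 419 cells of 35360 annotated cells, or of 20377 cells in all Exc clusters. At P60 there were 301 Exc_15 cells and at P21 there were 118. All animals were male C57BL/6N mice, and the 15 libraries were made from PFC pooled from 2 mice each by the study's methods. For P21 the study states 4 mice and 3 libraries were analysed, so whether the 3 P21 libraries came from separate mice is not known. The 12 P60 libraries came from mice that the labels give as 8 to 10 weeks old. The mice had self-administered cocaine or saline intravenously for 15 days. They were taken during maintenance, 48 h into withdrawal or 15 days into withdrawal, with 2 libraries for each of the 6 groups. The study states that catheters were implanted at P60, before self-administration and withdrawal. The age at collection may thus be higher than the label and may differ between the time points. The 3 P21 libraries came from untreated mice of 3 weeks. The P60 cells were clustered on their own, and the P21 cells received their cluster names by their correlation with the P60 clusters, so that a P21 cell is an Exc_15 cell only by that likeness. Age and sequencing batch cannot be told apart in this design, and neither can saline self-administration and age.

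Excitatory neurons of the neocortex use glutamate as transmitter and are sorted by the layer they lie in and by where their axons go. Intratelencephalic neurons send axons to other cortex and striatum, pyramidal tract neurons of layer 5 reach the brainstem, near-projecting neurons stay local, and corticothalamic neurons of layer 6 innervate the thalamus. Transcription factors such as Etv1, Fezf2, Tshz2 and Foxp2 mark these classes. Between weaning and adulthood PFC neurons prune and stabilise synapses, and genes of axon growth decline in cortex in general.

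Exc_15 was a small cluster in each library. The P21 libraries 1, 2 and 3 held 60, 24 and 34 of its cells. The saline libraries held 4 and 8 cells in maintenance (libraries 2 and 3), 12 and 31 at 48 h (libraries 5 and 7) and 63 and 27 at 15 d (libraries 11 and 12), and the cocaine libraries held 16 and 7 (libraries 1 and 4), 7 and 20 (libraries 6 and 8) and 75 and 31 (libraries 9 and 10). A library entered a comparison of expression only with at least 10 Exc_15 cells, which left 8 P60 libraries, 4 of saline and 4 of cocaine, and all 3 P21 libraries. These 11 libraries held between 247976 and 1430565 UMIs (unique molecular identifiers, that is counted transcripts) in Exc_15 cells.

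**Figure D1:**
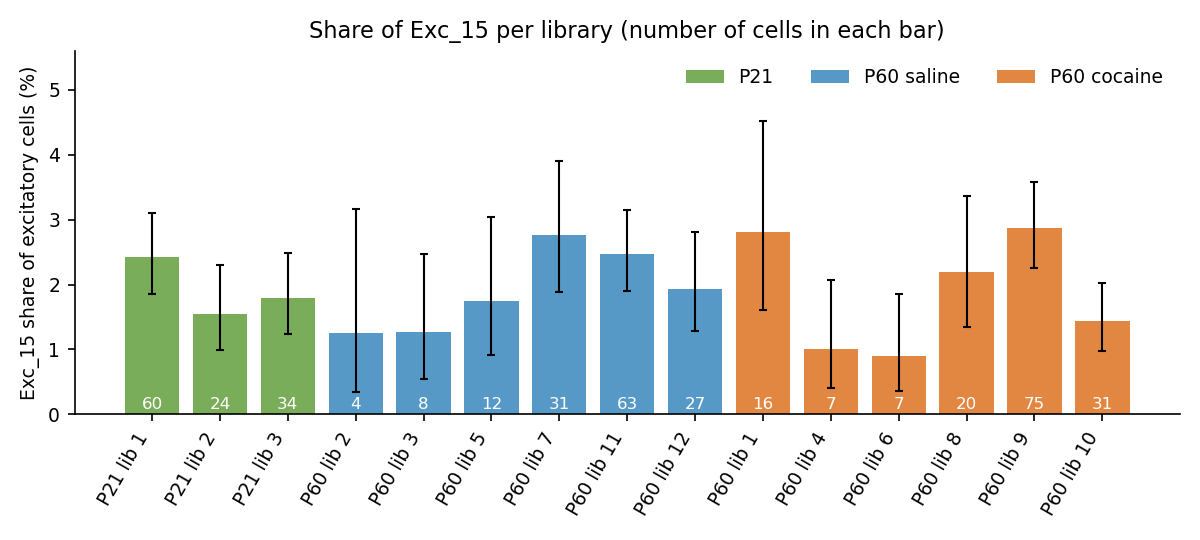
Bars give the share of Exc_15 among the excitatory cells of each library in percent, with 95% exact binomial intervals as lines and the number of Exc_15 cells in white. The P21 libraries lie between 1.55% and 2.42% and the P60 libraries between 0.906% and 2.86%, with saline and cocaine libraries overlapping.

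The share of Exc_15 among excitatory cells did not separate the treatments. It was 1.90% ± 0.621 (SD, n = 6) in saline and 1.87% ± 0.875 (SD, n = 6) in cocaine libraries, a difference of -0.0375 percentage points (two-sided exact permutation test within time points, p = 0.954, smallest possible p 0.00926). At P21 the share was 1.92% ± 0.449 (SD, n = 3). Exc_15 cells carried more UMIs than most excitatory cells. A P60 cell had a median of 21320 UMIs and 4984 genes, against 13510 UMIs and 3958 genes in the other Exc cells, and a P21 cell had 15176 UMIs and 4234 genes against 9141 and 3248. The share of mitochondrial UMIs was close to that of the other Exc cells, with medians of 2.53% against 2.33% at P60 and of 3.46% against 3.40% at P21. Between 3 cocaine and 4 saline libraries of the withdrawal times, the median per Exc_15 cell differed by 1763 UMIs, by 173 genes and by -0.199 percentage points of mitochondrial UMIs (exact permutation test, p = 0.278, 0.556 and 0.667, where the smallest possible p is 0.0556). With at least 5 cells per library all 3 differences changed sign, to -2647 UMIs, -363 genes and 0.134 percentage points. In the deposited broad classes, all P60 cells and 115 of the 118 P21 cells of Exc_15 were excitatory, while 2 P21 cells were inhibitory and 1 was endothelial. Across the 105 pairs of libraries, 1 pair shared a cell barcode within Exc_15.

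At P60 Exc_15 was led by Calb2, Expi, Hsd11b1 and S100b, the genes with the largest ratios to the other clusters among those at 20 CPM or more. The values below are CPM, the UMIs of a gene in the summed Exc_15 cells of a library scaled to the same total in every library. Genes of the mitochondrial genome and of ribosomal proteins did not enter. The levels describe the cluster without a test, since the cluster was built from these genes in these cells. Of 5970 genes at 20 CPM or more, 83 had over 2 times the mean of the other 25 Exc clusters, and 207 genes had their highest mean in Exc_15. The choice of libraries changed the leading genes in part. Calb2 fell under 20 CPM with at least 5 cells per library and in the saline libraries alone, and so left the list. In each of these settings, 11 of the 15 genes with the largest ratios were kept.

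Calb2, which encodes the calcium-binding protein calretinin (chromosome 8, 112661402 to 112692110, mm9), had the largest ratio among the genes at 20 CPM or more. It lay between 4.03 and 46.1 CPM in the 8 libraries with a median of 22.7 CPM, and its mean of 23.8 ± 13.98 CPM (SD, n = 8) was 18.1 times that of the other clusters. Exc_6, the next cluster, reached 6.86 ± 5.23 CPM (SD, n = 10), so that the lowest Exc_15 library lay within the spread of Exc_6. The gene was seen in 22.9% of P60 Exc_15 cells, against 0.533% of endothelial cells, which should lack it but had a median of only 4516 UMIs. After a random draw of 2000 UMIs from every cell, 3.32% and 0.200% of cells still showed it.

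Expi, a secreted protein of the whey acidic protein family, lay between 181 and 331 CPM with a median of 201 CPM. Its mean of 231 ± 54.4 CPM (SD, n = 8) was 9.84 times that of the other clusters, and Exc_16 came next with 153 ± 42.6 CPM (SD, n = 12). S100b, a calcium-binding protein best known from astrocytes, lay between 172 and 296 CPM with a mean of 250 ± 38.1 CPM (SD, n = 8), while Exc_25 reached 189 ± 31.7 CPM (SD, n = 12). Expi was seen in 87.0% and S100b in 80.1% of P60 Exc_15 cells, and in 16.5% and 19.4% of the other P60 Exc cells. In endothelial cells the shares were 0.533% and 4.71%. After a random draw of 2000 UMIs from every cell, each gene was seen in 31.2% of Exc_15 cells, against 3.85% and 6.05% of the other Exc cells. The astrocyte markers Gja1, Aqp4, Aldh1l1 and Aldoc together reached 50.6 to 119 CPM in the Exc_15 libraries and 82.5 to 139 CPM in the other Exc cells. Aldoc carried most of that sum, with 59.3 CPM in Exc_15 against 99.6 CPM in the other clusters, while Aldh1l1 was at 10.4 against 3.67 CPM, rank 2 of 26. Gja1 and Aqp4 had means of 1.13 and 0.694 CPM against 1.24 and 0.746 CPM, and the part of astrocyte RNA in the S100b level was not tested.

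Hsd11b1, the enzyme that regenerates active glucocorticoid inside cells, had a mean of 26.8 ± 10.7 CPM (SD, n = 8) and 9.45 times the level of the other clusters. Exc_23 was level with it at 25.6 ± 14.5 CPM (SD, n = 12). The glucocorticoid list did not share this rank: its 13 genes, with the receptors Nr3c1 and Nr3c2 and the targets Fkbp5, Sgk1 and Per1 among them, summed to 463 CPM in Exc_15, rank 22 of 26 clusters.

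Marcksl1, an actin-binding substrate of protein kinase C (chromosome 4, 129190825 to 129193229, mm9), lay between 105 and 170 CPM with a mean of 145 ± 22.9 CPM (SD, n = 8), against 115 ± 29.5 CPM in Exc_23 (SD, n = 12). Pcdh19, a protocadherin of cell adhesion, had 152 ± 25.1 CPM (SD, n = 8) against 106 ± 19.996 CPM in Exc_23 (SD, n = 12). Susd5, 4833422C13Rik and Dleu7 also had their highest mean in Exc_15, at 25.3 ± 5.77, 27.7 ± 18.2 and 22.5 ± 7.93 CPM (SD, n = 8). Susd5 was near level with Exc_23 at 23.1 ± 4.56 CPM (SD, n = 12). 4833422C13Rik was near level with Exc_7 at 21.6 ± 10.9 CPM (SD, n = 9). For Dleu7 the next cluster was Exc_25, at 15.0 ± 4.62 CPM (SD, n = 12). The other 6 of the 15 leading genes were as high or higher elsewhere. The retinoid receptor Rxrg had 57.1 CPM against 64.4 CPM in Exc_16, the sodium channel subunit Scn7a 36.6 CPM against 70.9 CPM in Exc_23, and the monoamine-degrading enzyme Maob 55.0 CPM against 56.3 CPM in Exc_16. The methyltransferase Nnmt, Klhdc8a and the opsin Opn3 ranked 5, 2 and 2. Ccdc109b and Etv1 came just after the first 15, with ratios of 3.03 and 3.11 and means of 47.7 ± 12.4 and 270 ± 22.8 CPM (SD, n = 8). Etv1 ranked 3 of 26, after 705 CPM in Exc_21 and 286 CPM in Exc_25.

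**Figure D2:**
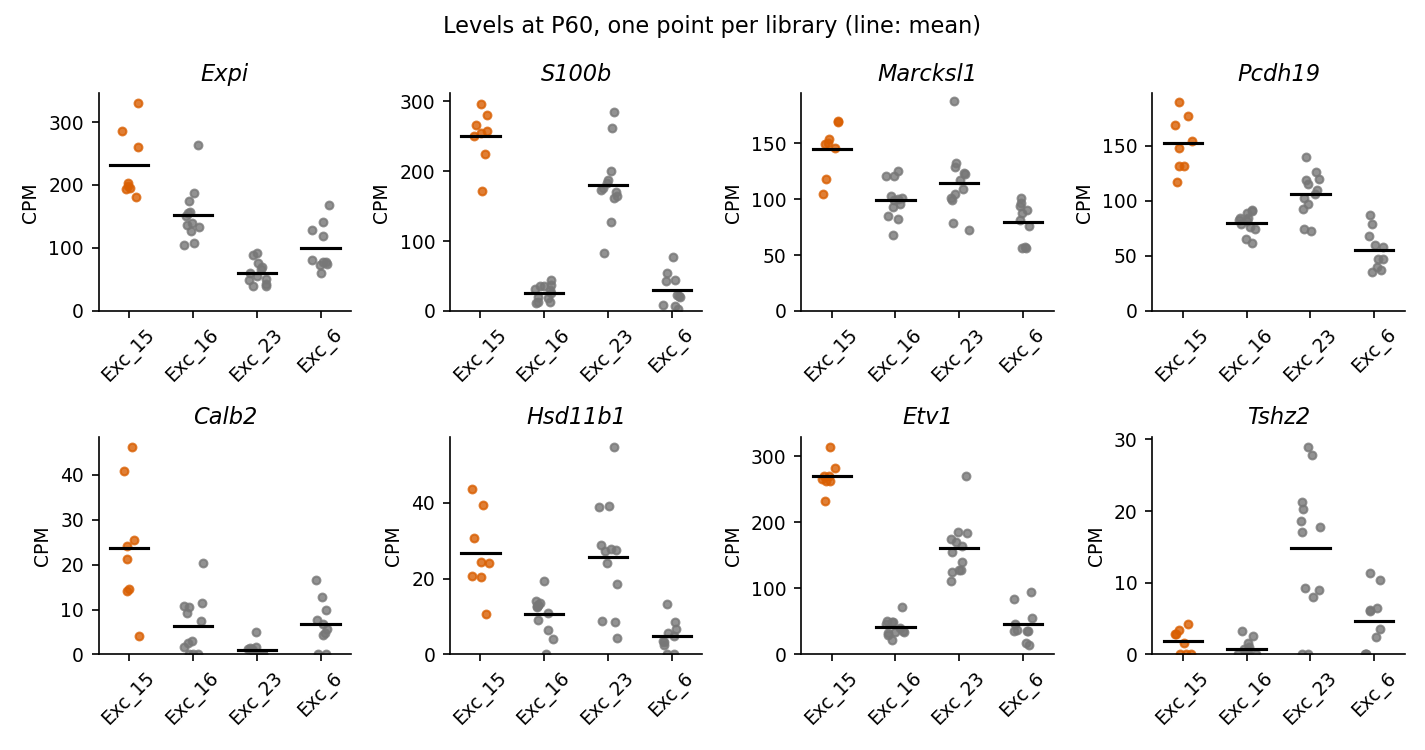
Each panel gives the CPM of one gene at P60, with one point for each library with at least 10 cells of the cluster and a line for the mean, in Exc_15 (orange) and in the 3 clusters most like it (grey). Expi, Pcdh19 and Etv1 have a higher mean in Exc_15 than in the other 3, Hsd11b1 is level with Exc_23, and Tshz2 has 4.26 CPM or less in every Exc_15 library.

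Among genes at 20 CPM or more in the other clusters, the lowest ratio over the 8 libraries was that of Tshz2. Tshz2, the transcription factor of near-projecting neurons, had 1.87 ± 1.71 CPM (SD, n = 8) against 95.9 CPM in the other clusters and 2099 CPM in Exc_21. Cbln2, Inhba, the enkephalin precursor Penk and Abi3bp lay under 1 CPM on average, against 22.0 to 31.6 CPM elsewhere. Calbindin, Calb1, had 2.99 CPM against 94.3 CPM, and Rprm, a gene of deep-layer neurons, 10.5 CPM against 312 CPM. Nnat, S100a6 and Ddit4l completed the 10 lowest, with 3.40, 7.95 and 2.31 CPM. Of the 10, only Abi3bp had its lowest mean in Exc_15, and Tshz2, Penk and Ddit4l ranked 19, 21 and 18 of 26. Low levels were shared in part with Exc_16, the most similar cluster, at 0.821 CPM for Tshz2, 0.401 CPM for Cbln2 and 0.785 CPM for Penk. The others of the 10 were higher in Exc_16 than in Exc_15. In all, 120 genes at 20 CPM or more elsewhere had under 0.5 times that level in Exc_15.

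The sum of the layer 5 intratelencephalic list in Exc_15 was 401 CPM, rank 4 of 26, with 355 to 450 CPM in the libraries against 157 to 220 CPM in the other Exc cells. The list was highest in Exc_21, at 728 CPM with Etv1 at 705 CPM, which is also the cluster highest in Tshz2 of near-projecting neurons. In Exc_15 too the sum rested on Etv1, with Deptor at 53.4 CPM, Rspo2 at 44.2 CPM and Hsd11b1, while Endou, Batf3, Tmem163, Tnc, Npw and Cbln4 had means of 2.08 CPM or less and Col27a1 was at 0. The layer 2/3 sum was 41.0 CPM, rank 21, that of layer 6 corticothalamic genes 13.5 CPM, rank 17, and that of layer 6 intratelencephalic genes 1.06 CPM, rank 25. Layer 4, layer 5 pyramidal tract and near-projecting sums ranked 10, 8 and 8, at 77.5, 68.9 and 85.3 CPM, and the layer 6b sum was 0.504 CPM.

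The excitatory label was checked against marker genes. Slc17a7, the vesicular glutamate transporter of cortex, had 459 ± 86.6 CPM (SD, n = 8) and was seen in 99.7% of P60 cells, against 9.34% of endothelial cells at lower depth. After thinning to 2000 UMIs the shares were 53.5% and 4.10%. Gad1, the enzyme of GABA synthesis, had 1.61 ± 1.53 CPM (SD, n = 8) and was seen in 3.99% of cells, against 1.26% of endothelial cells at lower depth and in no Exc_15 cell after thinning to 2000 UMIs. The neuronal transcription factor Neurod2 was at 79.2 CPM, against 75.5 CPM in the other clusters, and Tbr1 was lower at 23.3 CPM against 54.7 CPM. The sum of the 7 excitatory markers was 4068 CPM on average, rank 22 of 26. Its range of 3476 to 5371 CPM over the Exc_15 libraries overlapped that of 4959 to 6343 CPM in the other Exc cells, and it rested on the synaptic gene Snap25, at 2970 against 4478 CPM. The sums of the inhibitory, microglial and endothelial markers ranged over the Exc_15 libraries from 4.03 to 28.5, from 5.83 to 21.3 and from 4.03 to 27.4 CPM, and over the other Exc cells of single libraries from 3.45 to 22.8, from 8.81 to 22.6 and from 6.63 to 25.3 CPM, so that the ranges overlapped.

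Among lists of function, the 18 receptors of neuromodulators ranked second of all clusters with 502 CPM, next to 509 CPM in Exc_14. The cannabinoid receptor Cnr1 made up much of that sum, with 257 ± 36.3 CPM (SD, n = 8) against 116 CPM in the other clusters. Genes of neurofilaments and mature neurons ranked 3, sodium and calcium channels ranked 10, glutamate receptors 14 and GABA-A receptors 17. Heat shock genes ranked 10, immediate early genes 16, oxidative phosphorylation genes 21 and axon growth genes 7. R-spondin and Wnt genes ranked 10, the study's epigenetic genes 25, and 28 genes that the study chose from these libraries for a group of clusters with Exc_15 ranked 6. Ccdc109b, Rxrg, Scn7a and Nnmt of that list were described above, and the calcium channel Cacna1i of the same list had 33.0 CPM in Exc_15, rank 7.

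The clusters with the most similar profile were Exc_16, Exc_23, Exc_6 and Exc_25. Their centred log2 CPM correlated with that of Exc_15 at r = 0.714, 0.617, 0.565 and 0.529 over 7776 genes at P60, a description over genes that share libraries. At P21 the order was Exc_23 and Exc_16, with r = 0.485 and 0.469.

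The P21 cells kept part of this profile. Of the 15 leading genes of P60, 8 were again among the first 15 at P21, with S100b at 209, 151 and 127 CPM and Expi at 227, 256 and 167 CPM in libraries 1, 2 and 3. Calb2 and Hsd11b1 had rank 3 of 26 at P21, with means of 26.2 and 29.3 CPM against 34.7 CPM in Exc_6 and 61.4 CPM in Exc_23. The P21 libraries of Exc_15 were led by Dmrtb1, a transcription factor, at 15.3, 52.4 and 14.3 CPM, and this gene had 2.24 CPM at P60. That level is under the 20 CPM needed for the P60 list. Its ratio to the other clusters was 14.2 at P21 and 19.7 at P60. Met, the hepatocyte growth factor receptor, was at 14.2, 32.8 and 16.7 CPM. At P60 it had 3.95 CPM, with a ratio of 7.54 against 5.30 at P21. Single cells weighed on other P21 values: the interneuron peptide Vip was at 3.27, 0 and 90.7 CPM, and 36 of its 41 UMIs lay in 1 cell. Likewise 65 of 99 UMIs of Yjefn3 lay in 1 cell. All 12 UMIs of Gad1 at P21 lay in the 3 cells that the deposited classes do not call excitatory.

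The comparison of P21 with P60 asks how expression in Exc_15 changed over adolescence, with the 4 saline libraries 5, 7, 11 and 12 as the P60 side. Of 6926 genes tested, 580 passed (edgeR quasi-likelihood test, Benjamini-Hochberg adjusted p under 0.05 and over 1.5-fold), or 8.37% of genes tested. Of these, 267 were higher at P60 (3.86% of genes tested) and 313 lower (4.52%). The libraries of the ages did not overlap for 519 of the 580 genes, and for 22.9% of all genes tested. The median log2 change over all genes tested was -0.01.

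The largest rise was that of Ass1, argininosuccinate synthase of the arginine cycle (chromosome 2, 31325727 to 31376192, mm9). It was at 15.3, 6.55 and 11.9 CPM in the P21 libraries and at 149, 171, 191 and 203 CPM in the saline libraries 5, 7, 11 and 12. Every P60 library lay above every P21 library, and the log2 change was 3.85 ± 0.26 (SE, adjusted p = 7.09e-10). The nonmuscle myosin heavy chain Myh14 went from 6.54, 3.28 and 4.77 CPM to 28.2, 52.6, 44.0 and 25.8 CPM (log2 2.83 ± 0.42). Aldoc, an aldolase abundant in astrocytes, was at 16.3, 0 and 11.9 CPM and at 24.2, 52.6, 96.6 and 82.2 CPM. The sum of the 4 astrocyte markers, Aldoc included, was 9.83 to 32.7 CPM in Exc_15 at P21, with Aqp4 and Gja1 at 0, and 56.5 to 119 CPM in the saline libraries. Their part in the rise of Aldoc was not tested. Pdlim1, Fhad1, Haus1, Thrsp, Rbm11, Gstt1 and Slc5a5 completed the 10 largest rises, with log2 changes of 1.79 to 2.17.

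The largest fall was that of Cd24a, a surface glycoprotein of immature neurons (chromosome 10, 43298975 to 43304068, mm9). It was at 59.9, 134 and 93.1 CPM at P21 and at 8.07, 3.40, 3.45 and 1.61 CPM in saline libraries, which rest on 9 UMIs in all, and the log2 change was -4.58 ± 0.39 (SE, adjusted p = 5.77e-08). Hist1h2bc, a histone H2B gene, fell from 82.8, 151 and 107 CPM to 16.1, 6.79, 7.76 and 9.67 CPM (log2 -3.55 ± 0.30). The groups did not overlap for either gene. Ier2, Tmem93, Junb, Zfp580, Tmem42, Arxes1, Mrps24 and Tm2d1 followed, with log2 changes from -2.54 to -2.10. In Mrps24, P21 library 1 stood highest with 88.3 CPM against 49.1 and 21.5 CPM in libraries 2 and 3.

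**Figure D3:**
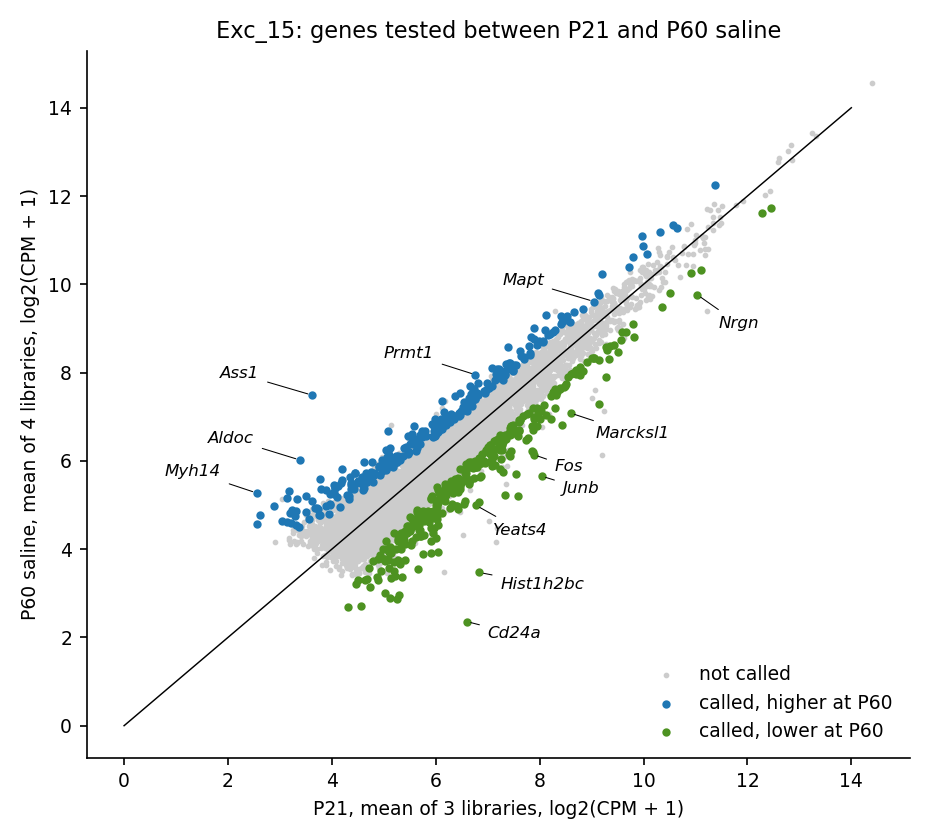
Each point is one of 6926 tested genes, with the mean log2(CPM + 1) of the 3 P21 libraries on the x axis and of the 4 P60 saline libraries on the y axis, and a line where they are equal. Blue genes passed the test as higher at P60 (267), green ones as lower (313), and grey genes did not pass, with Ass1 and Cd24a farthest from the line.

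Of 24 genes of axon growth and neurite extension, 21 were tested, 7 fell and 0 rose, where 4.52% of all genes tested fell. Their median log2 was -0.35, and 7 of the 21 lay above 0. Marcksl1 was at 407, 413 and 339 CPM at P21 and at 105, 170, 146 and 118 CPM in saline libraries (log2 -1.46 ± 0.16, SE, adjusted p = 7.8e-06), with no overlap. Its relative Marcks fell from 298, 259 and 272 CPM to 109, 127, 152 and 137 CPM (log2 -1.02 ± 0.16). The collapsin response mediators Dpysl5, Dpysl2 and Crmp1 fell by 1.67, 0.67 and 0.66 on the log2 scale, and the actin bundler Fscn1 fell by 1.00. Cd24a was the seventh.

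Of 22 immediate early genes, which neurons switch on within minutes of activity, 15 were tested, 7 fell and 0 rose, beside the 4.52% of all genes. The median log2 was -0.82, and 1 of the 15 lay above 0. Fos was at 206, 220 and 282 CPM at P21 and at 84.7, 34.0, 96.6 and 62.8 CPM in saline libraries (log2 -1.71 ± 0.24), and Junb at 280, 236 and 270 CPM and at 56.5, 25.5, 28.5 and 87.0 CPM (log2 -2.48 ± 0.34). Nr4a1, Nr4a3, Dusp1, Btg2 and Ier2 fell as well. The libraries of the ages did not overlap for any of the 7.

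Of 93 genes of oxidative phosphorylation, 84 were tested, 4 rose and 1 fell, beside 3.86% of all genes tested that rose and 4.52% that fell. The median log2 was 0.23, with 61 of the 84 above 0. The complex I subunits Ndufa9, Ndufs1 and Ndufv1 and the complex III subunit Uqcrc1 rose by 0.68 to 0.86 on the log2 scale. Ndufv1 was at 182, 239 and 239 CPM at P21 and at 464, 346, 344 and 400 CPM in saline libraries. Uqcrfs1, the iron-sulfur subunit of complex III, fell from 242, 144 and 81.2 CPM to 56.5, 64.5, 55.2 and 35.5 CPM.

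Of the study's 11 epigenetic genes, 9 were tested, 1 rose and 4 fell, beside 3.86% and 4.52% of all genes tested. The median log2 was -0.82, and 4 of the 9 lay above 0. The study took this list from these libraries, so that it is not independent evidence of direction. Prmt1, an arginine methyltransferase, rose from 137, 95.02 and 90.7 CPM to 294, 217, 222 and 251 CPM (log2 1.14 ± 0.19, SE, adjusted p = 0.000585). Dnmt3a, the de novo DNA methyltransferase, fell from 82.8, 108 and 90.7 CPM to 40.3, 20.4, 36.2 and 35.5 CPM (log2 -1.46 ± 0.23). Yeats4, a reader of acetylated histones, fell from 132, 102 and 93.1 CPM to 20.2, 28.9, 24.1 and 50.0 CPM. Mbd3 and Ube2d3 fell by 1.27 and 0.94 on the log2 scale.

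The remaining lists held few calls, to be read beside the 3.86% of all genes tested that rose and the 4.52% that fell. Of 9 tested genes of neurofilaments and mature neurons, the axonal protein tau, Mapt, rose (log2 0.61 ± 0.14), and the calmodulin-binding Nrgn and the kinase inhibitor Camk2n1 fell. Among 13 tested glutamate receptors, the AMPA subunit Gria1 rose (log2 0.70 ± 0.18) and the NMDA subunit Grin3a fell (log2 -1.41 ± 0.26). Zbtb16 of the glucocorticoid list, Dkk3 of the Wnt list and the layer 4 factor Rorb rose, and Tbr1 and Lypd1 fell. Among the 26 tested genes that the study chose on these libraries, Rxrg, Prtn3 and Myl6b rose and 0 fell. No call was made among 11 tested GABA-A receptor subunits, 14 sodium and calcium channels, 7 neuromodulator receptors, 10 heat shock genes and 4 layer 5 intratelencephalic genes, whose medians lay between -0.11 and 0.28. Of the 10 heat shock genes, 9 lay above 0. Hspa1a, also in the study's epigenetic list, was at 5.45, 6.55 and 9.55 CPM at P21, on 11 UMIs in all. In saline libraries 5, 7, 11 and 12 it was at 24.2, 13.6, 22.4 and 75.7 CPM (log2 2.32 ± 0.77, SE, edgeR adjusted p = 0.0913). The study reports a rise of Hspa1a in most excitatory subtypes. The layer 5 factor Etv1 was at 265, 259 and 224 CPM and at 282, 233, 263 and 314 CPM, overlapping groups.

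Of the 15 leading genes of Exc_15, 5 passed the age test, where 8.37% of all genes did. The 15 were chosen for their high level at P60, the side on which 3 of these 5 rose. S100b, Rxrg and Maob rose by log2 0.68 ± 0.17, 0.94 ± 0.28 and 1.59 ± 0.31, and Marcksl1 and Dleu7 fell by log2 -1.46 ± 0.16 and -1.43 ± 0.26. Maob was at 16.3, 36.0 and 9.55 CPM at P21 and at 36.3, 47.5, 68.1 and 54.8 CPM in saline libraries, where the lowest P60 library was 36.3 CPM. Calb2, Expi and Hsd11b1 had log2 changes of -0.32 ± 0.37, 0.20 ± 0.21 and -0.12 ± 0.33, and their libraries overlapped.

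Between P21 libraries 2 and 3 the chi-square per degree of freedom over the genes compared was 1.37. For library 1 against libraries 2 and 3 it was 2.83 and 3.27. In some genes P21 library 1 stood apart from the other P21 libraries. In Nrgn it had 3280 CPM against 1648 and 1358 CPM, and in Ccdc85b it had 242 CPM against 22.9 and 9.55 CPM, and without it 515 genes passed, 339 of the 580 among them. Without P21 library 2, 361 genes passed, and without saline library 7, 375 did. With P21 libraries 2 and 3 summed, a fit chosen after seeing the data, 456 genes passed, 428 of them among the 580.

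Cocaine was compared with saline at 15 days of withdrawal, with libraries 9 and 10 against libraries 11 and 12. Of 8059 genes tested, 58 passed, 0.72% of genes tested, and all 58 were higher after cocaine. The libraries of the groups did not overlap for any of the 58, nor for 40.8% of all genes tested. The largest change was that of Ccdc85b (chromosome 19, 5453163 to 5457549, mm9, overlapping Fosl1). It was at 93.7 and 66.0 CPM after cocaine and at 19.8 and 20.9 CPM after saline, with a log2 change of 2.08 ± 0.28 (SE, adjusted p = 0.000141). The dUTP-cleaving enzyme Dut was at 71.3 and 59.0 CPM against 11.2 and 25.8 CPM (log2 2.06 ± 0.32), and Tmem70, an assembly factor of ATP synthase, at 62.2 and 66.0 CPM against 15.5 and 22.6 CPM (log2 1.88 ± 0.30). 1500001M20Rik, Fbxl15, Tmem203, Tmem42, 2410004B18Rik, the Mediator subunit Med7 and Akr7a5 completed the 10 largest, at log2 1.65 to 1.94. Of the gene lists, Nrgn, Uqcrfs1 and Yeats4 rose by log2 1.00 ± 0.14, 1.295 ± 0.22 and 1.38 ± 0.28, and no other member passed. All 3 also fell between P21 and the saline libraries, a comparison that shares saline libraries 11 and 12 with this one, so that low values there lower both saline sides.

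Libraries 9 and 10 stood apart on these genes in all excitatory cells, and from the other cocaine libraries as well. For all 58 genes, both libraries lay above the cocaine libraries 1 (maintenance) and 8 (48 h) and the saline libraries 5 and 7 (48 h). This held for 8.23% of genes tested. The 58 were called for high values in libraries 9 and 10, in a fit that held all these libraries, so that choice in part fixed this count. Yeats4 was at 86.7 and 82.9 CPM in libraries 9 and 10, at 20.4 and 29.8 CPM in the cocaine libraries 1 and 8, and at 20.2, 28.9, 24.1 and 50.0 CPM in the saline libraries 5, 7, 11 and 12. In the other 25 Exc clusters the same gene was at 93.9 and 84.5 CPM in libraries 9 and 10 and at 21.3 to 56.2 CPM in the other 6. For 57 of the 58 genes, libraries 9 and 10 were above all 10 other P60 libraries in the other Exc cells too, against 8.14% of all genes tested. Saline library 12 was above saline library 11 for 51 of the 58 genes, against 45.5% of all genes tested.

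**Figure D4:**
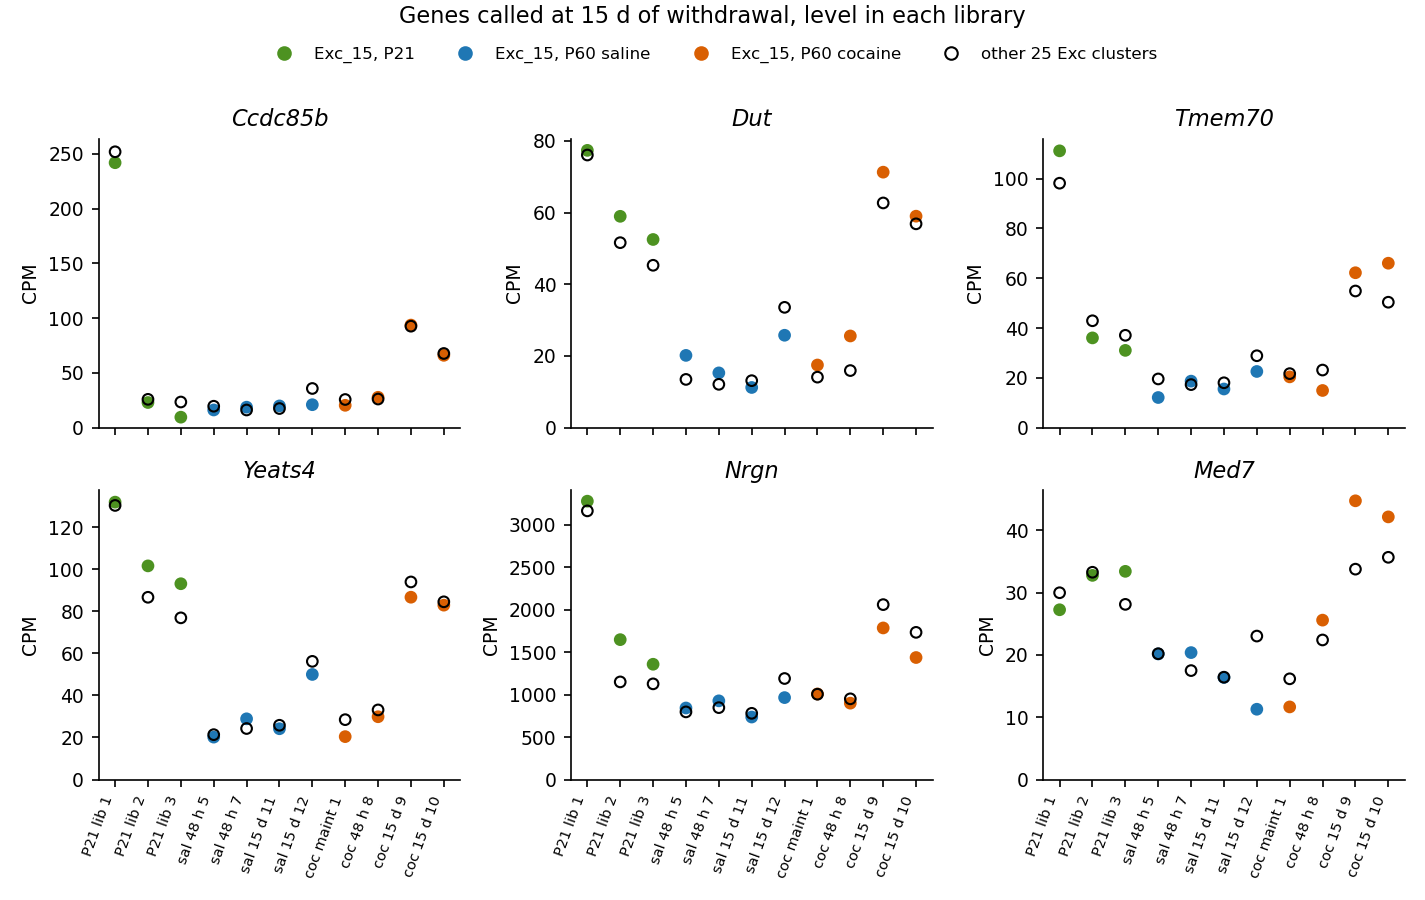
Each panel gives the CPM of one gene in the 11 libraries with at least 10 Exc_15 cells, filled for Exc_15 (green P21, blue P60 saline, orange P60 cocaine) and open for the other 25 Exc clusters of the library. Libraries 9 and 10 lie above the other P60 libraries in Exc_15 and in the other clusters alike, and the P21 libraries are high for Yeats4, Dut and Nrgn.

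The result rested on single libraries. Without saline library 11 only 3 genes passed, none of the 58: the neuropeptide Cck and Cox5a as higher and Hspa1a as lower, all named after their values were seen. Without cocaine library 9, 12 genes passed, all of them among the 58, and without saline library 12, 129 genes passed, with 52 of the 58 among them. Without the saline libraries 5 or 7 of 48 h, which lend the fit their spread, 104 and 89 genes passed. DESeq2 called 8 genes, 6 of them among the 58. With the cocaine libraries 9 and 10 in place of the saline libraries as the P60 side of the age comparison, 572 genes passed, 299 of them among the 580. The log2 change was -0.30 in place of -1.81 for Yeats4 and -0.29 in place of -1.25 for Nrgn, while it was 3.90 in place of 3.85 for Ass1, -3.99 in place of -4.58 for Cd24a and -1.25 in place of -1.46 for Marcksl1, 5 genes picked after their values were seen. Both comparisons share the P21 libraries.

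With at least 10 cells per library, 15 d was the only time point at which both treatments kept 2 libraries. With at least 5 cells, 48 h and the mean over 48 h and 15 d could be tested as well. There 0 of 7711 genes passed at either, with 281 and 372 genes at an unadjusted p under 0.05 (edgeR). Maintenance could not be tested, since its saline libraries held 4 and 8 cells.

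The last question was whether Exc_15 changed with age differently from the other 25 Exc clusters, tested as an interaction with each library as a block. Of 12472 genes, 24 passed (0.192% of genes tested), 11 with a higher change in Exc_15 (0.0882% of genes tested) and 13 with a lower one (0.104%). For 17 of the 24 the differences of the libraries did not overlap between the ages, against 7.47% of all genes tested. The calls depended on the processing: 15 genes passed without saline library 7, 6 with DESeq2 and 0 with the libraries thinned to equal depth. None of the 24 passed when Exc_6, Exc_16 and Exc_17 were the comparison, where 5 other genes passed: Actb, Fos, Cd24a, C1qb and Pam, named after their values were seen.

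Marcksl1 fell less in Exc_15 than in the sum of the other 25 Exc clusters, which is not so of each of them. In the other Exc clusters it was at 235, 222 and 221 CPM at P21 and at 17.9, 31.2, 30.4 and 36.1 CPM in saline libraries, so that Exc_15, with 105 to 170 CPM, kept more of it, with a difference of log2 change of 1.43 ± 0.14 (SE, adjusted p = 1.36e-21). Its log2 change was -1.46 in Exc_15, -1.44 in Exc_16, -1.78 in Exc_23 and -2.05 in Exc_6. Against Exc_6, Exc_16 and Exc_17 together the difference was 0.40 (adjusted p = 0.616).

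Dkkl1, a secreted relative of the Wnt inhibitor Dickkopf (chromosome 7, 52462895 to 52467253, mm9), was at a mean of 242 CPM in Exc_15 at P21, rank 2 of 26 after 254 CPM in Exc_23. It was at 311, 164 and 253 CPM at P21 and at 343, 301, 326 and 303 CPM in saline libraries, overlapping groups. In the other Exc clusters it went from 88.3, 59.0 and 54.4 CPM to 130, 185, 204 and 210 CPM, and the difference of log2 change was -1.12 ± 0.13. The receptor Gpr83 was at 19.6, 16.4 and 19.1 CPM and at 12.1, 8.49, 19.8 and 20.9 CPM in Exc_15, while its mean elsewhere went from 13.5 to 46.6 CPM (difference -1.90 ± 0.38). Tcap had a difference of -1.44 ± 0.23, with 76.3, 39.3 and 66.8 CPM at P21 and 16.1, 59.4, 37.9 and 61.2 CPM at P60 in Exc_15, overlapping groups, and means of 25.9 and 46.4 CPM elsewhere.

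**Figure D5:**
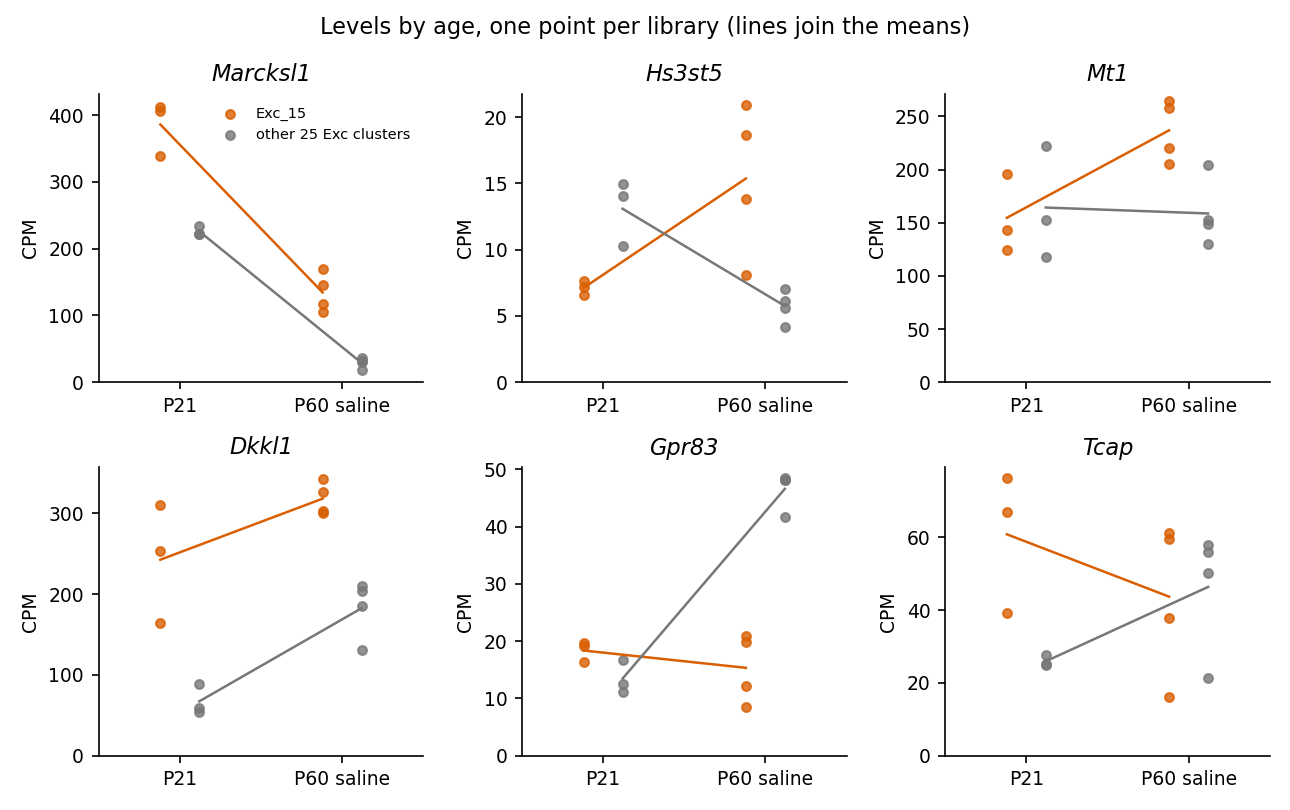
Each panel gives the CPM of one gene at P21 (3 libraries) and in P60 saline libraries (4), in Exc_15 (orange) and in the other 25 Exc clusters of the same libraries (grey), with lines that join the means. Marcksl1 is lower at P60 in both, Gpr83 is higher at P60 outside Exc_15 and overlaps within it, and Dkkl1 lies above the sum of the other 25 clusters at both ages, which does not hold against Exc_23 alone at P21.

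Hist1h2bc fell further in Exc_15, by a difference of -1.56 ± 0.30, with means of 128 and 30.9 CPM at the ages elsewhere. Prmt8, an arginine methyltransferase of neurons, was at 102, 180 and 172 CPM at P21 and at 64.5, 56.0, 75.9 and 62.8 CPM in saline libraries of Exc_15, and at means of 68.3 and 55.0 CPM elsewhere (difference -0.76 ± 0.18). Bdnf, the neurotrophin, was at 168, 223 and 160 CPM and at 145, 93.4, 142 and 110 CPM, with means of 147 and 156 CPM elsewhere (difference -0.60 ± 0.15). Both lay lower in every saline library than in every P21 library of Exc_15. The cell cycle inhibitor Cdkn1a and Cnr1 had differences of -0.64 and -0.59, the latter with library differences that overlapped between the ages.

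Mt1, a metallothionein that binds zinc and copper, was at 196, 125 and 143 CPM at P21 and at 206, 258, 220 and 264 CPM in saline libraries of Exc_15, while its means elsewhere were 164 and 159 CPM (difference 0.70 ± 0.14). Hs3st5, a heparan sulfate sulfotransferase, was at 7.63, 6.55 and 7.16 CPM and at 8.07, 18.7, 13.8 and 20.9 CPM, against means of 13.1 and 5.75 CPM elsewhere (difference 2.17 ± 0.48). Efhd2, a calcium-binding protein, was at 51.2, 39.3 and 59.7 CPM and at 80.7, 98.5, 75.01 and 69.3 CPM, against means of 147 and 125 CPM elsewhere (difference 0.86 ± 0.20, which turned to -0.35 against Exc_6, Exc_16 and Exc_17). In these 3 genes the P60 libraries of Exc_15 lay above its P21 libraries. For Hs3st5 the closest of them were at 8.07 and 7.63 CPM, and its P21 values rest on 12 UMIs in 11 cells.

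The remaining differences rested on few UMIs or overlapped. Asb11 had a difference of -1.63 ± 0.36, and Cxcl12, a chemokine, of -2.46 ± 0.63, on 38 UMIs at P21 and 4 at P60. Tshz2 had -3.39 ± 0.52 from 44 UMIs at P21, of which 30 lay in 2 cells, and 5 at P60. Il17ra, Ccnd1 and Pgam2 had 0, 2 and 3 UMIs in Exc_15 at P21 against 20, 64 and 29 in saline libraries, and Sema3c had 15 UMIs at P21 and 0 at P60, so no fold is given. Of the P21 UMIs, 9 of 38 for Cxcl12 and 6 of 15 for Sema3c lay in the 3 cells that the deposited classes do not call excitatory. BC006965 had -0.97 ± 0.24 with library differences that overlapped, and is named after its values were seen.

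Glial genes were among the 24. Mbp of myelin and Aldoc of astrocytes had differences of 1.31 ± 0.18 and 1.49 ± 0.32, and Sparcl1, which astrocytes also make and which is named after its values were seen, of 0.66 ± 0.14. For all 3 the differences between Exc_15 and the other clusters overlapped between the ages. The 4 oligodendrocyte markers summed to 62.3 to 501 CPM at P21 and to 66.2 to 161 CPM in saline libraries in Exc_15, and to 262 to 539 CPM and 56.2 to 125 CPM in the other Exc cells. The astrocyte markers summed to 40.5 to 87.0 CPM at P21 and to 82.5 to 139 CPM at P60 in the other Exc cells. The part of glial RNA in these differences was not tested.

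The response to cocaine in Exc_15 did not separate from that of the other Exc clusters in a test with a single cocaine term over 48 h and 15 d. The test did not take 15 d alone. In simulated counts it called 38% of the genes given a log2 difference of 1, so smaller differences could be missed. Of 13121 genes, 0 passed the interaction with cocaine (edgeR, and 0 with DESeq2), and 540 had an unadjusted p under 0.05. Without cocaine library 10, 4 genes passed. For Yeats4 and Nrgn, which passed at 15 d in Exc_15, the differences of the cocaine change over both times were 0.02 and -0.07 on the log2 scale.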

How the data were processed

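Single-cell RNA-seq was performed by the authors on droplet libraries of mouse PFC, with sequences aligned and counted by Cell Ranger against mm9 and cells filtered and clustered with Seurat 2.1.0, per the labels and the study's methods. The tissue field of the labels names the NAc, while titles and methods name the PFC. The deposited values used here are UMI counts for each gene and cell. Cell names, broad classes and clusters came from the deposited annotation, whose fraction of mitochondrial UMIs per cell was also used as the authors deposited it, and doublets were treated only by the authors' filters. The ceiling of genes per cell in the study's methods lies under the P60 Exc_15 median of 4984 genes. Cells of Exc_15 reached 7661 genes, so how that filter was applied is not known. Whether doublets remain in Exc_15 was not tested. Cells of one library were summed for Exc_15 and for the other 25 Exc clusters, without 13 mitochondrial and 143 ribosomal protein genes, which left 25989 of 26145 genes. Of the 26145 genes, 25724 had a position in the annotation of mm9 used here.

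Counts were tested with edgeR 4.0.16 (R 4.3.3; TMM, filterByExpr, robust quasi-likelihood) and, as an alternative, DESeq2 1.42.0, on libraries with at least 10 Exc_15 cells. The cocaine fit gave every P60 group its own mean over those libraries, and the interactions held each library as a block. A call needed an adjusted p under 0.05 over all genes tested and a change above 1.5-fold. Shares and cell quality were tested by permuting the treatment inside each time point exactly. Levels are CPM, and shares of cells carry exact binomial intervals that cover counting error only. The scripts were tested on simulated data. P-values measure the spread between pooled libraries, which at P21 may be technical in part. Replicate libraries differed by more than counting noise, with a chi-square per degree of freedom of 1.37 to 3.27.

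The members and lists were chosen with earlier results of these data known. Named genes were the 15 with the largest and the 10 with the smallest ratio of Exc_15 to the other clusters at 20 CPM or more, genes the study names for a group of clusters with Exc_15, the 10 largest rises and falls among called genes whose libraries do not overlap, and called members of the lists. Some genes are not reported here. A fold was not given where a group held 3 UMIs or fewer.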

Additional observations from a re-analysis of the deposited data

Results flagged for a closer look

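In 62 groups of 4 libraries or more that were checked for a library far from the others, 5 were marked, where chance marks about 1 in 20. All lay in the saline libraries of Exc_15. Library 11 was highest in Thrsp with 30.2 CPM and in Tbr1 with 29.3 CPM. Library 12 was highest in Ier2 with 14.5 CPM and in Tm2d1 with 67.7 CPM and lowest in Grin3a with 16.1 CPM.

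The age change of 17 genes differed between Exc_15 and the other 25 Exc clusters by the interaction test, with differences that did not overlap between the ages. The log2 differences were 1.43 for Marcksl1, 2.17 for Hs3st5 (on 12 UMIs at P21), 0.70 for Mt1 and 0.86 for Efhd2. They were -1.12 for Dkkl1, -1.90 for Gpr83, -1.44 for Tcap, -1.56 for Hist1h2bc and -1.63 for Asb11. They were -2.46 for Cxcl12, -0.76 for Prmt8, -0.64 for Cdkn1a and -0.60 for Bdnf. Il17ra, Ccnd1 and Pgam2 had 20, 64 and 29 UMIs in P60 saline libraries and 3 or fewer at P21, and Sema3c had 15 UMIs at P21 and 0 at P60. For Cxcl12 and Sema3c, 9 of 38 and 6 of 15 P21 UMIs lay in the 3 cells not classed as excitatory.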

How the results depend on the processing

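Among the 15 leading genes of P60, 11 were kept with at least 5 cells per library and 11 in the saline libraries alone. Calb2 fell under 20 CPM in both settings. The age comparison called 580 genes. The 54 genes named from these calls all kept their direction, which their choice as calls favours. Of the 54, 24 were called under every alternative. DESeq2 called 300, thinning to equal depth 315, P21 libraries 2 and 3 summed 456 and the saline libraries of 15 d alone 227. Leaving out one library gave 361 to 515. At 15 d of withdrawal, 58 calls became 8 with DESeq2, 135 without a filter on low counts, 11 after thinning and 21 in an additive fit of phase and treatment chosen after seeing the data. Leaving out one library gave 3 to 129. The 24 differences of the age change became 6 with DESeq2, 0 after thinning and 5 against Exc_6, Exc_16 and Exc_17. There Efhd2 turned to -0.35 (adjusted p = 0.854). Leaving out one library gave 15 to 33. Of the 21 genes named for these differences, 0 were called under every alternative. The difference of the cocaine change gave 2 calls after thinning and 0 to 4 without one library. The share difference ranged from -0.237 to 0.155 percentage points without one library. With at least 5 cells per library the differences per cell turned to -2647 UMIs, -363 genes and 0.134 percentage points of mitochondrial UMIs, and without one library they ranged from 20 to 3595 UMIs, from -126 to 372 genes and from -0.392 to -0.00546 points. No paired analysis was possible because the labels give no replicate number that saline, cocaine or P21 groups share, and the library block of the differences between clusters pairs cells of one library only. The causes of these changes were not tested. Exc_15 holds 4 to 75 cells in a library, which limits genes at a few CPM.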

Other observations

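Cck, the neuropeptide cholecystokinin of cortical neurons, differed more between libraries than between Exc_15 and the other Exc clusters. It is named here after its values were seen. In Exc_15 it was at 270, 516, 479 and 1418 CPM in the saline libraries 5, 7, 11 and 12, at 571 and 755 CPM in the cocaine libraries 1 and 8, and at 3416 and 3270 CPM in the cocaine libraries 9 and 10. The P21 libraries were at 4156, 1648 and 1349 CPM. The other 25 Exc clusters gave 459, 417, 457 and 1689 CPM, 666 and 664 CPM, and 3747 and 3123 CPM in the same P60 libraries. Libraries 9 and 10 are the only cocaine libraries of 15 d, so library and treatment cannot be told apart there. The study names Cck and Nrgn among genes implicated in cocaine withdrawal whose change was not confined to a single cluster. All 75 Exc_15 cells of library 9 held a UMI of the gene. With a log2 change of 1.90 ± 0.68 at 15 d, Cck did not pass the test there (edgeR adjusted p = 0.670).

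The haemoglobin gene Hba-a1 in Exc_15 was at 444 CPM in P21 library 1 and at 253 CPM in P60 library 9, and at 17.1 CPM or less in the other 9 libraries. Of 407 UMIs in P21 library 1, 314 lay in 1 cell, and of 362 UMIs in P60 library 9, 349 lay in 1 cell. Hba-a1, Hba-a2, Hbb-b2 and Ngb were the 4 genes called for a different cocaine change without cocaine library 10.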
